A study of Rattus norvegicus with 12 samples.

Results

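The miR-30 family was measured in rat dorsal root ganglia (DRG) with assays for miR-30a, miR-30b, miR-30c, miR-30d and miR-30e, on the card as mmu-miR-30a, mmu-miR-30b, mmu-miR-30c, mmu-miR-30d and mmu-miR-30e. These 5 assays are all the rows of the Ct table whose name holds miR-30 followed by a letter, out of 154 miR assays. All 154 had a value in each of the 12 arrays, since the authors deposited only miRs that every array detected. No assay for the opposite strand of a miR-30 hairpin was among the 154.

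The DRG were collected on Day 23 from adult male Sprague-Dawley rats in 3 groups of 4 arrays. For its array comparison of the injuries the paper describes them as ipsilateral to the injury. In Sural-SNI the common peroneal and tibial branches of the sciatic nerve were tied and cut and the sural branch was left intact, in Tibial-SNI the common peroneal and sural branches were cut and the tibial branch was left intact, and in Sham the nerve was only exposed. Each group held 2 arrays of L3-DRG and 2 of L4-DRG, each pair numbered replicate 1 and replicate 2, and since no label ties an array to a rat, an L3-DRG and an L4-DRG may be from the same animal. The comparisons ask whether the family differed between a nerve injury followed by lasting allodynia (Sural-SNI) and one followed by recovery (Tibial-SNI), between each injury and Sham, and between L4-DRG and L3-DRG, which differ in how many of their axons run in the cut branches.

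MicroRNAs are short RNAs that, loaded into an Argonaute protein, pair with sites in mRNAs mainly through their seed, the bases 2 to 8, and lower the translation or the level of those mRNAs. The miR-30 family is conserved among vertebrates and expressed in most tissues, including neurons and glia, and members made from the 5′ arm of their hairpins carry the same seed and so share most predicted targets. In studies of rodent neuropathic pain, miR-30b has been tied to voltage-gated sodium channel mRNAs, and miR-30c has been studied in the same setting. Whole ganglia hold sensory neurons, satellite glia, Schwann cells, vessels and immune cells, and in such bulk samples fewer cells of a type and less RNA per cell cannot be told apart.

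The sequences are shown because the seed is what makes these miRs a family, while the bases after it are what an assay has to tell apart. The assay names carry no arm and were matched to the 5′ arm in RefSeq (build GRCr8), where miR-30a, miR-30c and miR-30e had an entry. The capitals mark the seed:
miR-30a: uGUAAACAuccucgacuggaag
miR-30e: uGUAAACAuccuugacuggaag
miR-30c: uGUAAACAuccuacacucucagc
miR-384-5p: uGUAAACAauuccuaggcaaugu

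All 4 sequences had the same seed, including miR-384-5p, which has another name and is no member. MiR-30a and miR-30e differed at a single position of the 22 compared, C13U with positions counted from the 5′ end of miR-30a, and miR-30c differed from each of them at 5 positions, all from position 13 on. From miR-384-5p, miR-30a differed at 10 positions, the first of them position 9, directly after the seed. How far the assays of miR-30a and miR-30e tell their 2 sequences apart was not tested.

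In the rat genome (GRCr8) the mature miR-30a lies at chr9:33233946-33233967 (+) in Mir30a. The mature miR-30c has 2 copies, at chr5:139634505-139634527 (−) in Mir30c1 and at chr9:33253695-33253717 (+) in Mir30c2, and miR-30e lies at chr5:139637504-139637525 (−) in Mir30e. Mir30e and Mir30c1 are neighbours within the span of Nfyc, the gene of a subunit of the transcription factor NF-Y. Mir30a and Mir30c2 neighbour each other on chromosome 9, and Mir30b and Mir30d neighbour each other within the span of the uncharacterized gene LOC102551574. Thus an assay of miR-30c reads the product of 2 genes, each a neighbour of the gene of another member.

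The readout of a well is its threshold cycle (Ct), which falls as the amount of the miR rises, and a Ct difference of 1 is a factor of 2 if an assay doubles its product in each cycle. Averaged over the 154 miRs, the Ct of an array lay between 27.2 and 30.5, and it followed the replicate number, with a mean of 29.9 in the 6 arrays numbered 1 and 27.8 in the 6 numbered 2. The reference assays did not move together between those numbers: from replicate 1 to replicate 2 the mean Ct of snoRNA135 fell by 3.94, that of U87 fell by 1.52, and that of MammU6 rose by 0.861. The labels do not say what the number stands for. MiR-182 and miR-183, which mark sensory neurons, had Ct from 22.3 to 29.2, while miR-96 of the same cluster is not among the 154 assays. Only miRs detected in every array were deposited, so the presence of these 2 in all arrays is no check of the tissue.

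MiR-30c and miR-30b were among the miRs with the lowest Ct in these ganglia. The Ct of miR-30c was between 22.6 and 25.1, which placed it between rank 4 and rank 11 of 154 in every array, with a median rank of 8. The Ct of miR-30b was between 23.5 and 26.0, with ranks from 11 to 17 and a median rank of 14. Both therefore stood among the first 17 of the 154 assays in all 3 groups and at both DRG levels.

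In Sham, the Ct of miR-30c was 25.1 and 23.7 in L3-DRG and 24.1 and 22.7 in L4-DRG, replicate 1 before replicate 2. In Sural-SNI it was 24.5 and 23.3 in L3-DRG and 24.3 and 22.6 in L4-DRG, and in Tibial-SNI 25.03 and 22.6 in L3-DRG and 25.1 and 23.5 in L4-DRG. Within every group and level the array numbered 1 had the higher Ct, and the 3 groups overlapped.

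For miR-30b the Ct in Sham was 26.0 and 24.7 in L3-DRG and 24.9 and 23.5 in L4-DRG. In Sural-SNI it was 25.2 and 24.3 in L3-DRG and 24.9 and 23.6 in L4-DRG, and in Tibial-SNI 25.8 and 23.6 in L3-DRG and 25.8 and 24.5 in L4-DRG. The groups overlapped here too, and each array lay close to its miR-30c value.

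The other members had higher Ct. MiR-30e ranged from 24.4 to 27.4, with ranks from 20 to 26. MiR-30a ranged from 24.98 to 29.9, with ranks from 30 to 58, and miR-30d, the member with the highest Ct, ranged from 25.4 to 30.65, with ranks from 40 to 72. Thus miR-30a and miR-30d moved over much wider ranges of rank than the others.

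The order miR-30c, miR-30b, miR-30e, miR-30a, miR-30d held in all 12 arrays. The narrowest step between neighbours was that from miR-30a to miR-30d, with a median of 0.698 cycles and a lowest value of 0.23 cycles, and the steps from miR-30c to miR-30b and from miR-30b to miR-30e had medians of 0.871 and 0.967 cycles. Each assay has its own primers and probe, and their efficiencies were not measured here, so the order is that of Ct and may differ from the order of molecules.

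**Figure D1:**
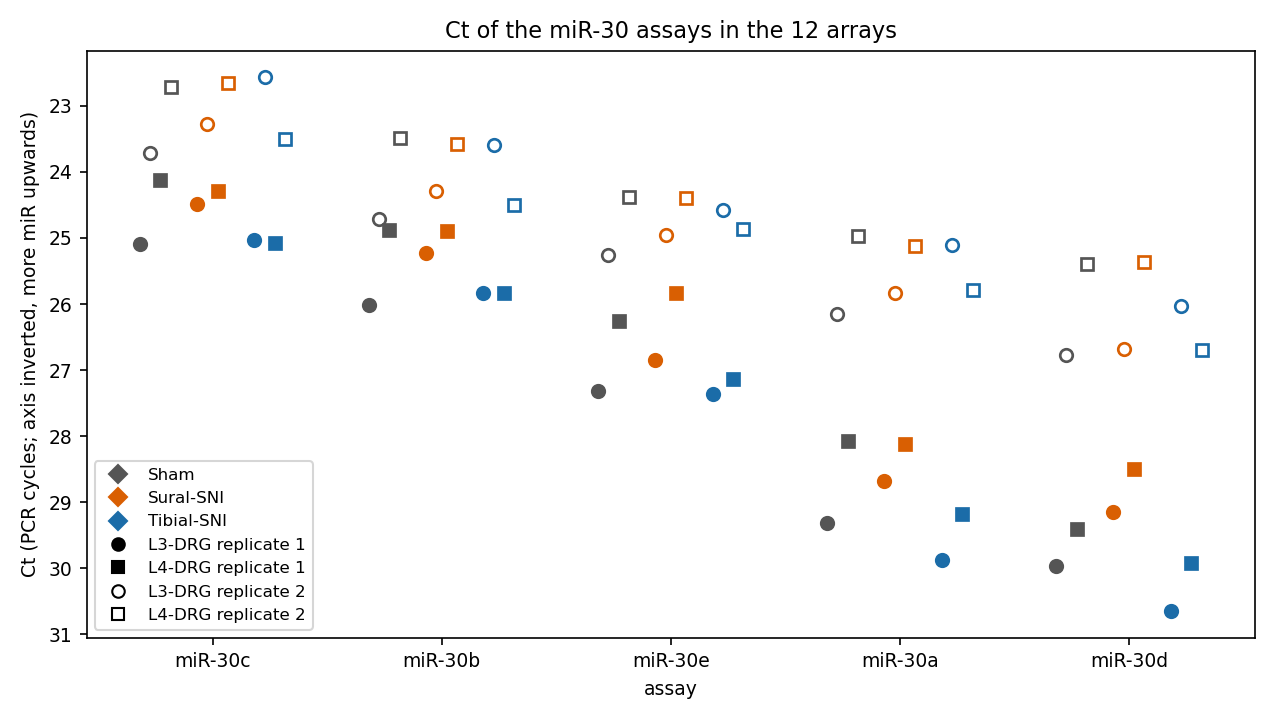
Ct in PCR cycles (vertical axis, inverted so that more miR is higher) of the 5 miR-30 assays in each of the 12 arrays; colours mark the group, circles L3-DRG, squares L4-DRG, filled symbols replicate 1 and open symbols replicate 2. Filled and open symbols stand much farther apart for miR-30a and miR-30d than for miR-30c and miR-30b, while the 3 colours overlap.

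The members split by replicate number, while their values overlapped between the groups. On average the Ct of replicate 1 was above that of replicate 2 by 3.38 cycles for miR-30a and by 3.44 cycles for miR-30d, but by 1.42 cycles for miR-30b and 1.61 cycles for miR-30c, with miR-30e in between at 2.06 cycles. A difference of Ct between 2 members within an array needs no reference assay, and it carried the same split.

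The Ct of miR-30a minus that of miR-30c was 4.19 and 3.83 in the Sural-SNI arrays numbered 1 (L3-DRG before L4-DRG), 4.85 and 4.10 in those of Tibial-SNI and 4.24 and 3.95 in those of Sham. In the arrays numbered 2 the Sural-SNI values were 2.57 and 2.48, the Tibial-SNI values 2.53 and 2.28 and the Sham values 2.43 and 2.27. The lowest value of replicate 1 was thus above the highest of replicate 2 in all 3 groups.

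For miR-30a minus miR-30e, the pair that differs by a single base, the difference was between 1.81 and 2.52 cycles in replicate 1 and between 0.523 and 0.921 in replicate 2. For miR-30b minus miR-30c it was between 0.605 and 0.934 cycles in replicate 1 and between 0.775 and 1.03 in replicate 2, so the ranges overlapped, and the means differed by only −0.19 cycles. For miR-30d minus miR-30a the ranges overlapped as well, with means of 0.723 and 0.658 cycles.

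In 6 of the 10 pairs of members the differences of the 2 replicate numbers did not overlap. These were the 6 pairs of miR-30a or miR-30d with miR-30b, miR-30c or miR-30e. Over all pairs of the 154 miR assays the same was true of 40.3%, so a split of this kind was common on these cards and is not particular to the family. It is given as a description with no test, since it was noticed in these data.

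**Figure D2:**
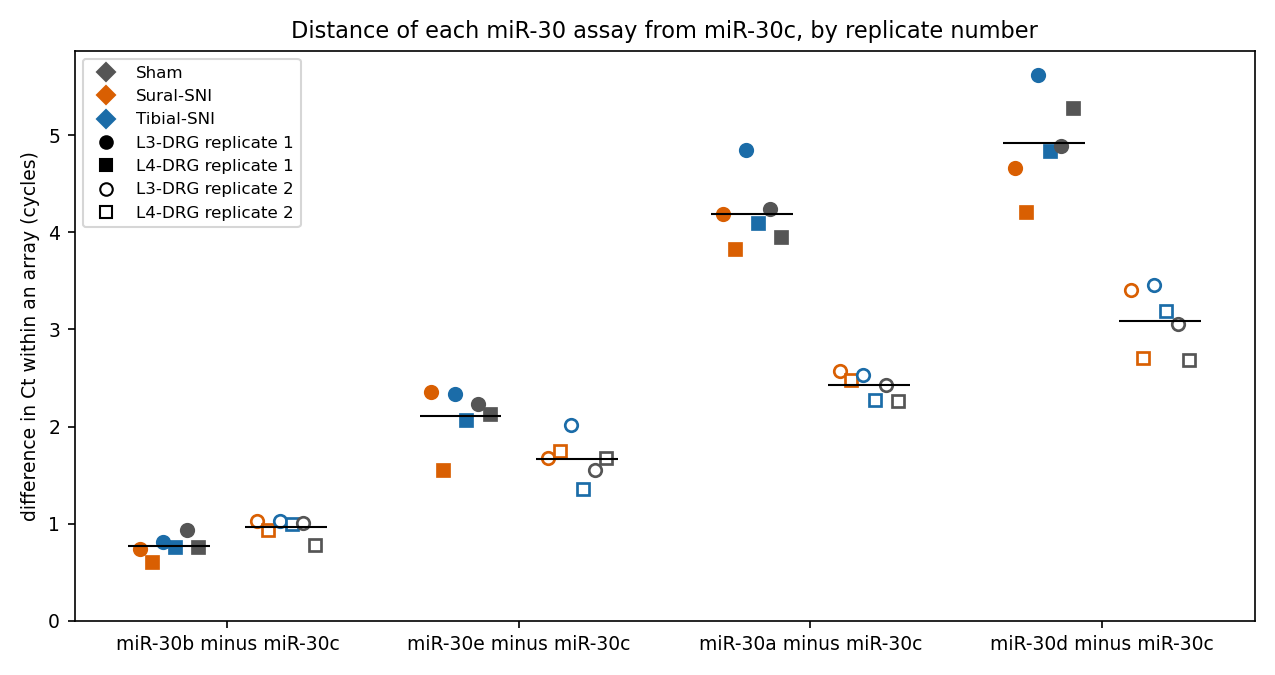
Ct of miR-30b, miR-30e, miR-30a and miR-30d minus the Ct of miR-30c in the same array (vertical axis, cycles), with replicate 1 at the left and replicate 2 at the right of each pair; horizontal lines are means of 6 arrays. The values of replicate 1 and replicate 2 do not overlap for miR-30a (3.83 to 4.85 against 2.27 to 2.57) or miR-30d, and overlap for miR-30b and miR-30e.

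The same within-array differences were then compared between the groups, where no reference assay and no shift common to all wells of an array can enter. None of the 10 pairs of members had values that did not overlap between Tibial-SNI and Sural-SNI, between Sural-SNI and Sham or between Tibial-SNI and Sham, against 1.21%, 0.917% and 1.00% of all pairs of miR assays. In an exact permutation test over all 70 splits of 4 arrays against 4 (two-sided, smallest p possible 0.0286), 0 of the 30 tests passed after adjustment and 0 had an unadjusted p under 0.05. With that smallest p, adjustment over 30 tests left little room for any pair to pass, and the splits do not keep arrays of the same level and number together.

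The smallest p among these 30 tests was 0.0857 in the exact permutation test, for miR-30d minus miR-30a, which was 0.838 cycles in Tibial-SNI and 0.479 cycles in Sural-SNI (means of 4 arrays, adjusted p = 0.971). The difference of miR-30b minus miR-30c was 0.868 ± 0.123 cycles in Sham, 0.825 ± 0.189 in Sural-SNI and 0.899 ± 0.133 in Tibial-SNI (SD, n = 4).

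Compared within the 4 blocks of DRG level and replicate number, miR-30d minus miR-30a was higher in Tibial-SNI than in Sural-SNI in 4 of 4 blocks, by 0.358 ± 0.251 cycles (SD). The same direction in 4 of 4 blocks was seen for miR-30d minus miR-30b, by 0.457 ± 0.345 cycles, for miR-30d minus miR-30c, by 0.531 ± 0.379 cycles, and for miR-30b minus miR-30c, by 0.0742 ± 0.0633 cycles, and in the other 6 pairs not all blocks had the same direction. Each of these 4 pairs had an exact sign-flip p of 0.125, the smallest that 4 blocks allow, and an adjusted p of 0.625, so this design could not call them. The first 3 pairs share miR-30d and are not independent of each other. Against Sham, 4 of 4 blocks had the same direction for miR-30a minus miR-30b in Sural-SNI, by 0.091 ± 0.0544 cycles. The same held for miR-30a minus miR-30c in Tibial-SNI, by 0.22 ± 0.271 cycles. How many of all pairs of miR assays had 1 direction in 4 blocks was not counted. These directions are therefore not read as a trait of the family.

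Between L4-DRG and L3-DRG, 0 of the 10 pairs passed the exact permutation test over 924 splits and 0 had an unadjusted p under 0.05. The largest of the 10 changes between the levels was −0.36 cycles, for miR-30d minus miR-30c.

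The agreement among the members was described by Pearson's r over the 12 arrays, with each miR's level centred on the mean of all 154 miRs of its array. The points may share rats, and share the shift between replicate numbers, so no p is given. MiR-30b and miR-30c had r = 0.95, and miR-30a and miR-30d had r = 0.91. Between those 2 pairs r was negative, from −0.85 to −0.71, and miR-30e stood apart from both, with r from −0.46 to 0.30.

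Over all 11781 pairs of miRs the median r was −0.01, and 2.45% of the pairs had r over 0.9. Over the 35 pairs of assays that could be matched to a rat sequence and shared a seed the median was −0.12. With −ΔCt, the level against the 3 reference assays, the medians were 0.22 with a shared seed and 0.17 over all pairs, and with centred levels within each DRG level and replicate number 0.04 and −0.01, so which of them was higher depended on the scale. Within the family r of the centred levels spanned −0.85 to 0.95.

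When the mean of each DRG level and replicate number was first subtracted, r between miR-30b and miR-30c was 0.91, above 99.9% of all pairs of miRs. Between miR-30a and miR-30d it was 0.29, and between miR-30a and miR-30b it was 0.45 where it had been −0.83. With −ΔCt, r was 0.89 for miR-30b with miR-30c and 0.96 for miR-30a with miR-30d, while miR-30a with miR-30b had −0.07. The close agreement of miR-30b with miR-30c is thus the relation that was seen on each of these scales, and that of the other pairs depended on the scale.

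**Figure D3:**
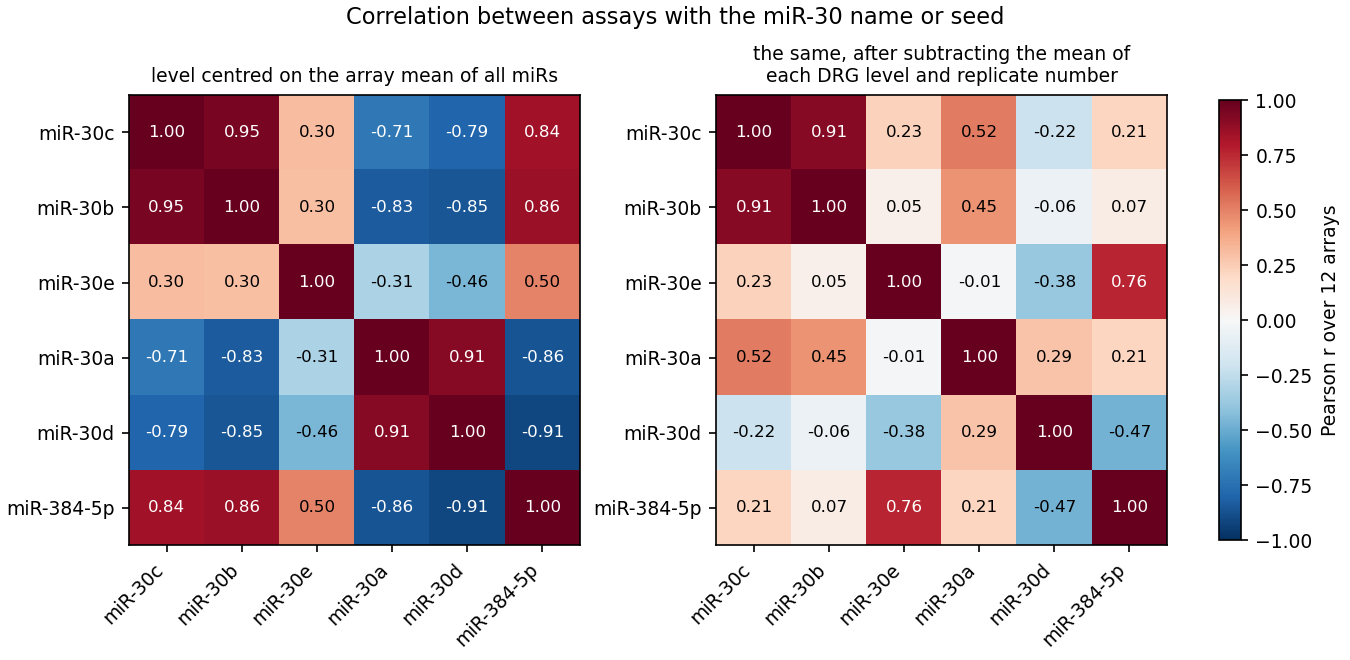
Pearson r over 12 arrays between the 5 miR-30 assays and miR-384-5p, with levels centred on the mean of all miRs of an array (left) and after also subtracting the mean of each DRG level and replicate number (right). The cell of miR-30b and miR-30c is 0.95 on the left and 0.91 on the right, while the dark blue cells of miR-30a and miR-30d with miR-30b and miR-30c on the left are pale or red on the right.

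MiR-384-5p, which has the seed of the family but other bases after it, had a Ct from 24.8 to 26.8. Its centred level had r = 0.86 with miR-30b, 0.84 with miR-30c and −0.91 with miR-30d. Within the DRG levels and replicate numbers these were 0.07, 0.21 and −0.47, and its highest r there was 0.76, with miR-30e.

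The miR most like miR-30c in its centred level was miR-328 (r = 0.96), followed by miR-30b, miR-487b, miR-196b and miR-103, and for miR-30b the order was miR-30c, miR-328 (r = 0.94), miR-331-3p, miR-484 and miR-193b. The miRs most like miR-30a were miR-26a (r = 0.96), miR-126-5p, miR-17, miR-106a and miR-27b, and those most like miR-30d were miR-652 (r = 0.94), miR-26a, miR-106a, miR-30a and miR-17. So miR-30a and miR-30d had miR-26a, miR-106a and miR-17 in common, and miR-30b and miR-30c had miR-328.

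Within the DRG levels and replicate numbers most of this likeness was not seen. There miR-30a had r = 0.21 with miR-26a, −0.35 with miR-126-5p, −0.34 with miR-17 and 0.05 with miR-106a, and 0.70 with miR-27b. MiR-30d had r = 0.58 with miR-652, 0.35 with miR-26a, 0.46 with miR-106a and −0.04 with miR-17. For miR-328, r within them was 0.88 with miR-30c and 0.82 with miR-30b.

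For miR-30e no miR came near these values. The most alike were miR-1 in its rat assay (r = 0.65), miR-133b and miR-133a, which are miRs of skeletal muscle, then miR-217 and miR-323-3p. Within the DRG levels and replicate numbers r with these 5 was from 0.52 to 0.74, but with −ΔCt it was −0.30 for miR-1, 0.07 for miR-133b, −0.46 for miR-133a and −0.40 for miR-217, and 0.69 for miR-323-3p, so the likeness to the muscle miRs was not seen against the reference assays. Of the 4 names in the skeletal muscle list 3 are among the 154 assays, with Ct from 22.3 to 32.04, and miR-206 is not. Their summed level, as log2 against the references, had a lowest and a highest value of 0.59 and 1.73 in Sham, −0.17 and 1.35 in Sural-SNI, and 0.01 and 4.41 in Tibial-SNI. The part of muscle RNA in the values of miR-30e was not tested.

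Between Tibial-SNI and Sural-SNI, the comparison the arrays were made for, no member passed the test. The log2(fold change) of an SNI array is its −ΔCt minus that of the Sham array with the same level and number, and the test was limma with Benjamini-Hochberg adjustment over the 154 miRs and a threshold of 0.05. It called 0.649% of the miRs, a single one, miR-325, and 0 of the 5 members, none of which had an unadjusted p under 0.05. The difference of miR-325 was −1.49 on the log2 scale (adjusted p = 0.034 in limma). The paper reports that its qPCR showed no significant difference of miR-325 between the injuries, also in the same RNA samples. With the variance trend or with DRG level as a covariate, limma also called 1 miR. It called no miR with any other reference, with the other Sham terms, with the replicate block or without any single array. Neither Ct limit gave a call, but these limits left fewer miRs to test (134 and 87). With the limit of 35 the smallest adjusted p in limma was 0.978, so miR-325 was not among the miRs left. Its Ct thus passed that limit in some array, and the call rests on an assay with a high Ct. The Ct limits do not test that call.

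The log2(fold change) of miR-30c was 0.26, 0.33, −0.60 and −0.17 in Sural-SNI (L3-DRG replicates 1 and 2, then L4-DRG replicates 1 and 2) and 0.71, 0.54, 0.15 and −0.29 in Tibial-SNI. That of miR-30b was 0.45, 0.31, −0.45 and −0.33 in Sural-SNI and 0.83, 0.53, 0.14 and −0.51 in Tibial-SNI. For both miRs the L3-DRG arrays were above 0 and the L4-DRG arrays lower, and the 2 injuries overlapped.

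The difference between the injuries was 0.32 for miR-30c (95% interval −0.45 to 1.10) and 0.25 for miR-30b (−0.61 to 1.11), on the log2 scale with 4 arrays a group. It was 0.22 for miR-30e (−0.37 to 0.81), 0.15 for miR-30a (−0.54 to 0.84) and −0.21 for miR-30d (−1.02 to 0.61), and the adjusted p of all 5 was 0.995. The median of the members was 0.22, and that of all 154 miRs 0.10. The upper bounds of miR-30b and miR-30c and the lower bound of miR-30d lie beyond a change of 1 on the log2 scale. This unpaired fit therefore does not show that the injuries were alike. It held no replicate block. With that block the residual SD of the members' mean was 0.157 instead of 0.332, and intervals with the block are not given here.

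**Figure D4:**
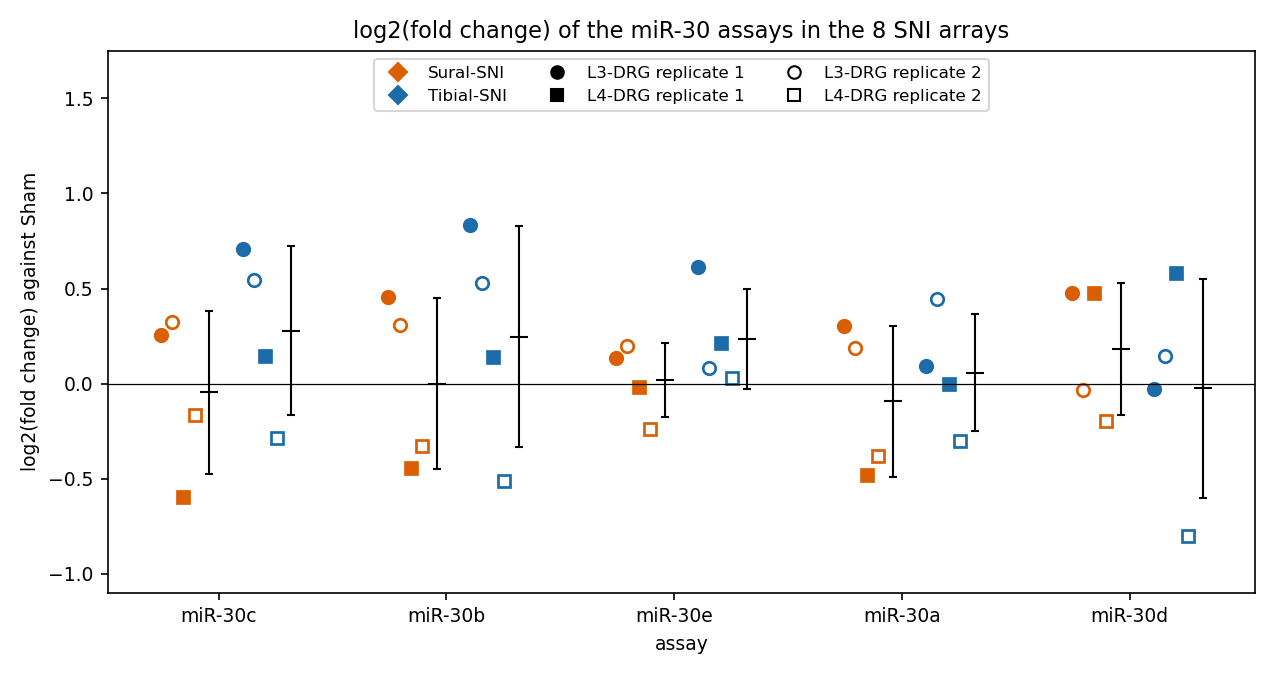
log2(fold change) against Sham, matched by DRG level and number (vertical axis), for the 5 miR-30 assays in the 8 SNI arrays; bars are the mean ± SD of 4 arrays, and colours and symbols mark injury, DRG level and number. The means lie between −0.09 and 0.28, and the 2 injuries overlap for every member.

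Against Sham, the members did not pass the test in either injury. In Sural-SNI limma called 0% of the 154 miRs and 0 of the 5 members, with no miR at an unadjusted p under 0.05. The mean −ΔCt of miR-30c was 1.17 ± 0.38 in Sural-SNI and 1.21 ± 0.15 in Sham, and that of miR-30b was 0.34 ± 0.27 and 0.35 ± 0.25 (SD, n = 4). The differences were −0.05 for miR-30c (95% interval −0.67 to 0.58) and about 0 for miR-30b (−0.65 to 0.65), and the median of the members was about 0 against 0.15 for all miRs.

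In Tibial-SNI limma called 0% of the miRs against Sham, and 0 of the members had an unadjusted p under 0.05. The mean −ΔCt of miR-30c was 1.49 ± 0.31 and that of miR-30b was 0.59 ± 0.36 (SD, n = 4). The differences from Sham were 0.28 for miR-30c (95% interval −0.34 to 0.90), 0.25 for miR-30b (−0.40 to 0.90) and 0.23 for miR-30e (−0.46 to 0.93). The median of the members was 0.23, as was that of all miRs, and it was about 0 when all miRs together served as the reference.

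For miR-30a and miR-30d the intervals against Sham were wider. In Sural-SNI the difference was −0.09 for miR-30a (−1.76 to 1.57) and 0.18 for miR-30d (−1.56 to 1.93), and in Tibial-SNI it was 0.06 (−1.61 to 1.72) and −0.03 (−1.77 to 1.72). Their −ΔCt ran from −3.11 to −0.84 and from −4.07 to −1.25 within Sham alone, along the replicate number described above. A change of 1 on the log2 scale in these members could not have been told from the spread of the arrays in this fit. The fit held no term for the replicate number, so the shift between the numbers counted as spread. For log2(fold change), matched by level and number, the SD of miR-30a was 0.40 (Sural-SNI) and 0.31 (Tibial-SNI). That of miR-30d was 0.35 (Sural-SNI) and 0.58 (Tibial-SNI). No member was called with the replicate block either, and its intervals are not given here.

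**Figure D5:**
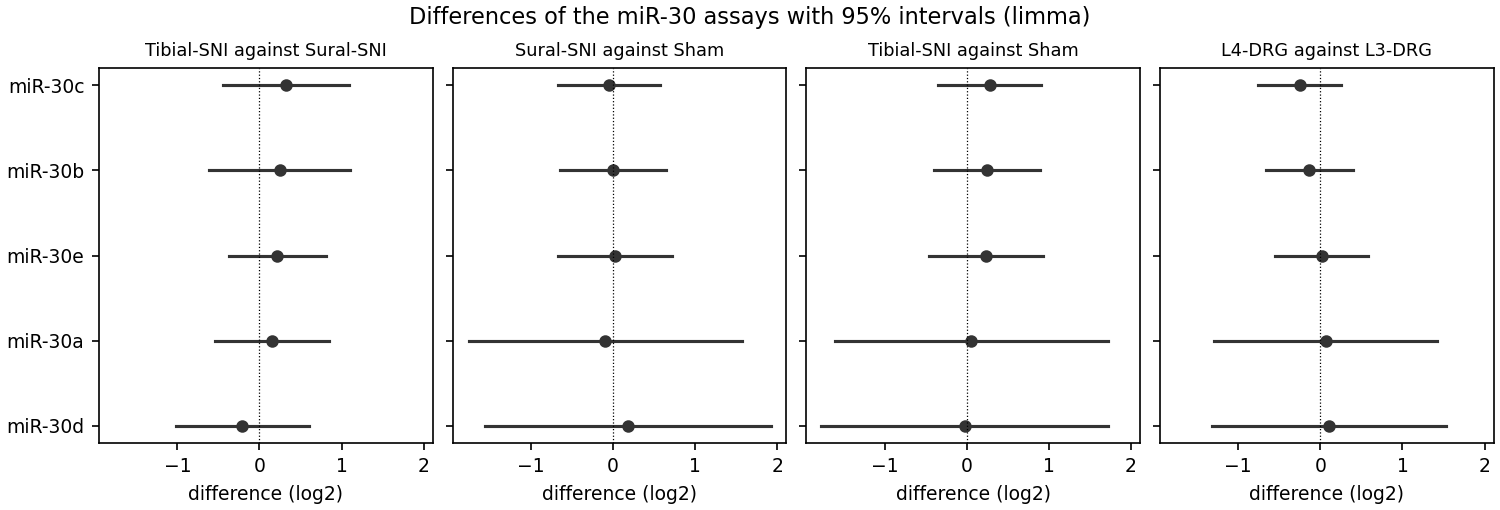
Difference on the log2 scale (horizontal axis) of the 5 miR-30 assays in 4 comparisons, with points for the limma estimate and lines for its 95% interval. Every interval includes 0, and those of miR-30a and miR-30d against Sham and between levels are the wide ones.

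Between the DRG levels, over the 12 arrays, limma called 0% of the miRs and 0 of the 5 members, with 0 members at an unadjusted p under 0.05. The difference of L4-DRG from L3-DRG was −0.25 for miR-30c (95% interval −0.76 to 0.25), −0.14 for miR-30b (−0.67 to 0.40), 0.02 for miR-30e (−0.55 to 0.59), 0.07 for miR-30a (−1.29 to 1.42) and 0.11 for miR-30d (−1.32 to 1.53). The median of the members was 0.02, and that of all miRs −0.01.

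Within Sural-SNI the levels lay on different sides of Sham for most members. For miR-30a, miR-30b, miR-30c and miR-30e, both L3-DRG arrays had a log2(fold change) above 0 and both L4-DRG arrays one below 0, as did 16.2% of all miRs. In miR-30a the values were 0.30 and 0.19 in L3-DRG and −0.48 and −0.38 in L4-DRG, and in miR-30e 0.14 and 0.20 in L3-DRG and −0.02 and −0.24 in L4-DRG. MiR-30d, with 0.48 and −0.03 in L3-DRG and 0.48 and −0.19 in L4-DRG, did not have this form. When the reference was the mean Ct of all miRs it was left in miR-30b alone, against 11.04% of all miRs. With MammU6 alone or snoRNA135 alone it was seen in miR-30a, miR-30b and miR-30c, against 11.04% and 14.3% of all miRs. With U87 alone, or snoRNA135 and U87 together, it was seen in the same 4 members, against 21.4% and 18.2% of all miRs.

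In Tibial-SNI the same form was seen in miR-30a alone, against 16.9% of all miRs. Its values there were 0.09 and 0.44 in L3-DRG and about 0 and −0.30 in L4-DRG. It was seen in no member there with MammU6 alone, snoRNA135 alone, U87 alone or all miRs together as reference, and in miR-30b alone with snoRNA135 and U87 together. Both injuries are set against the same 4 Sham arrays, so their values are not independent of each other.

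The test of that difference, an interaction of injury and DRG level, did not call any member. In Sural-SNI against Sham, limma called 0% of the miRs, and the change from L3-DRG to L4-DRG was lower than that of Sham by 0.77 for miR-30b (difference −0.77, 95% interval −2.09 to 0.56) and by 0.67 for miR-30c (difference −0.67, −1.99 to 0.64). The median was −0.67 over the members and −0.35 over all miRs. In Tibial-SNI against Sham, with 0% of the miRs called, the difference was −0.87 for miR-30b (−2.19 to 0.46) and −0.70 for miR-30c (−2.02 to 0.62), with a median of −0.42 over the members and −0.47 over all miRs.

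Between Tibial-SNI and Sural-SNI the same interaction was −0.10 for miR-30b (−1.42 to 1.23) and −0.02 for miR-30c (−1.34 to 1.29), with 0% of the miRs and no member called. No member had an unadjusted p under 0.05 in any of these 3 interactions. The smallest adjusted p among the members in them was 0.996.

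As a list from the literature on nerve injury, miR-21, miR-31, miR-132, miR-146a, miR-155, miR-221, miR-222, miR-96, miR-182 and miR-183 were set beside the family. Of these 10, 7 are among the 154 assays, and 0 of the 7 were called by limma, or had an unadjusted p under 0.05, between the injuries, against Sham in either injury or between the DRG levels. Their median difference was 0.09 between Tibial-SNI and Sural-SNI, 0.25 between Sural-SNI and Sham and 0.10 between Tibial-SNI and Sham.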

How the data were processed

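Total RNA of single DRG was amplified, without a limit on Ct, on card A (version 2) of the TaqMan rodent microRNA set. The authors deposited non-normalized Ct values of the miRs that every array detected, and a table of fold changes against Sham, the authors' own comparison, which was not used. ExpressionSuite was the authors' software. Since a Ct counts no molecules, precision rests on the number of arrays, 4 in a group. The paper describes single ipsilateral DRG, so the 2 replicates of a level in an SNI group were from separate rats. Nothing states whether L3-DRG and L4-DRG arrays share rats, and p-values measure the spread between these arrays.

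The Ct table holds 160 wells, 154 of miRs and 6 of reference assays (4 of MammU6, averaged first). −ΔCt was taken against the mean of MammU6, snoRNA135 and U87, and log2(fold change) against the Sham array with that DRG level and number. Tibial-SNI and Sural-SNI were compared on log2(fold change), and the other comparisons were fitted on −ΔCt of the 12 arrays with group and DRG level, with lmFit and eBayes of limma 3.58.1 (R 4.3.3), two-sided, with Benjamini-Hochberg adjustment over 154 miRs. Differences of Ct between members were compared by exact permutation (Python 3.11.15), with adjustment over 30 tests for the groups and 10 for the DRG levels. The fits were run on simulated data with planted shifts larger than the difference of any member here. That check does not tell how the fits do with shifts of the size seen in the members. The figures were drawn with matplotlib 3.10.9.

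Arrays of the same level and replicate number deviated together from their group means (r across miRs from 0.46 to 0.81 in 12 pairs). Arrays of different numbers deviated oppositely (−0.79 to −0.51 in 24 pairs), which follows in part because deviations within a group cancel out. Pairs with the same number but different levels were not included. The first principal component (66.0% of the variance) separated the numbers. By the same-number r and this component, the numbers pair the arrays.

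The members, the lists and the tests were chosen with earlier results of these data known. The text names all members, the references, for each member the 5 miRs with the highest r, miR-384-5p for its seed (chosen after its values were seen), miR-325 as the single miR called, and the injury and cell type lists. The lists of sensory and other neurons, glia, leukocytes, red blood cells, endothelium, and skeletal and vascular muscle had 0 members called in the 4 comparisons of groups and levels. Between Tibial-SNI and Sural-SNI, 2 of 2 vascular muscle assays and 1 of 4 skeletal muscle assays had an unadjusted p under 0.05 in limma. The median differences of these 2 lists were 0.97 and 1.23. In the rest of these lists and comparisons no assay had such a p. Of the miR assays, 49 were matched by name to a single rat sequence. Alternatives were other references, Ct limits of 35 and 32, the replicate block, a random block of group and number, a variance trend, other Sham terms, the methods' one-tailed unpaired test, and leaving out each array.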

Additional observations from a re-analysis of the deposited data

How the results depend on the processing

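No member was called under the alternatives that were run. Those of the references, the Ct limits, the variance trend, the replicate block and leaving out each array covered all 7 limma comparisons, the random block covered each injury against Sham and L4-DRG against L3-DRG, and the other Sham terms and DRG level as a covariate covered Tibial-SNI against Sural-SNI alone. The methods' one-tailed unpaired test was run by halving the two-sided p in whichever direction was seen. At its threshold of 0.09 it called 17 of 154 miRs between Tibial-SNI and Sural-SNI and 0 members. Both directions could pass, so this threshold is looser than that of a single fixed tail, and these 17 are not read as findings. With the replicate block (DRG level and number) no call of a member changed: the median of the members stayed 0.22 between the injuries, with a smallest adjusted p of 0.784, and the Ct difference of miR-30b minus miR-30c between them stayed 0.07 in a paired sign-flip test (exact p = 0.125, the smallest possible with 4 blocks). Between the injuries, 1 miR was called with the variance trend or with DRG level as a covariate, as without them, and 0 in each other alternative of limma. The Ct limits tested only 134 and 87 of the 154 miRs there. For the DRG levels a block of 4 levels could not be fitted beside the level itself, and a block of 2 replicate numbers, added after the data were seen, was used. The deposited fold changes as input were not run.

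The direction of differences that had not been called turned with the reference. With MammU6 alone, Tibial-SNI against Sural-SNI was −0.00363 for miR-30a, Sural-SNI against Sham 0.0646 for miR-30b and 0.0208 for miR-30c, Tibial-SNI against Sham −0.0301 for miR-30a, and L4-DRG against L3-DRG 0.0485 for miR-30b. With U87 alone, Sural-SNI against Sham was 0.00225 for miR-30b and Tibial-SNI against Sham 0.0692 for miR-30d, which was 0.0186 with snoRNA135 and U87. With snoRNA135 alone, Sural-SNI against Sham was −0.0507 for miR-30e, and L4-DRG against L3-DRG was −0.109 for miR-30a, −0.0647 for miR-30d and −0.156 for miR-30e. With snoRNA135 and U87 these were −0.0137 for miR-30e in Sural-SNI against Sham, and −0.0269 for miR-30a and −0.0736 for miR-30e between the levels. With the mean of all miRs, Sural-SNI against Sham was −0.135 for miR-30e, and Tibial-SNI against Sham −0.178 for miR-30a and −0.000516 for miR-30e.

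Without single arrays, Tibial-SNI against Sural-SNI ran from −0.41 to 0.0505 for miR-30d, 0.02 to 0.28 for miR-30a, 0.05 to 0.50 for miR-30b, 0.14 to 0.51 for miR-30c, 0.09 to 0.33 for miR-30e and 0.09 to 0.28 for their median. Sural-SNI against Sham ran from −0.49 to 0.34 for miR-30a, −0.12 to 0.14 for miR-30b, −0.14 to 0.12 for miR-30c, −0.33 to 0.73 for miR-30d and −0.14 to 0.18 for miR-30e. Tibial-SNI against Sham ran from −0.35 to 0.48 for miR-30a, 0.11 to 0.39 for miR-30b, 0.19 to 0.41 for miR-30c, 0.08 to 0.40 for miR-30e and −0.54 to 0.52 for miR-30d, and L4-DRG against L3-DRG from −0.22 to 0.36 for miR-30a, −0.25 to 0.45 for miR-30d and −0.0887 to 0.123 for miR-30e. The Ct difference of miR-30b minus miR-30c changed by −0.11 to 0.0294 in Sural-SNI and −0.0119 to 0.0771 in Tibial-SNI against Sham, and miR-30d minus miR-30a by −0.0564 to 0.135 from replicate 2 to replicate 1. Without L4-DRG Sural-SNI replicate 1, 8 pairs of members had no overlap between replicate numbers instead of 6. The cause of these changes was not tested.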
